A study of Mus musculus with 6 samples.

Results

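The genes described here are 10 that build or control new fatty acid synthesis in liver, taken from a fixed set of symbols and matched by symbol to the Ensembl identifiers of the count files, 10 of 54232 genes in all. They are the transcription factor genes Srebf1 and Mlxipl, the enzyme genes Acly, Acaca, Acacb and Fasn, the feeder enzyme genes Me1 and Pklr, and the paired regulator genes Thrsp and Mid1ip1. The rule that lists them uses no measured value, and each of the 10 passed the filter on low counts. RNA sequencing was done on liver of chow-fed male C57BL/6 mice aged 8 to 10 weeks, with 3 libraries per group. The SKO group (Fxr-/-Xbp1fl/fl) lacked the bile acid receptor FXR and carried floxed, intact Xbp1 alleles. The DKO group (Fxr-/-Xbp1LKO) lacked FXR as well and had also lost Xbp1 in the liver. Both groups thus share the FXR deletion. No group with FXR was analysed here, and which promoter drives Cre was not given in the sources used here. Titles of 4 libraries, 1 of SKO and 3 of DKO, carry 2 numbers, whose meaning is not stated. Whether each library is a different animal is not stated, and the p-values therefore reflect the variation of these libraries, which could be technical in part.

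De novo lipogenesis turns surplus carbohydrate into fatty acids. Glycolysis yields pyruvate, mitochondria export it as citrate, ATP citrate lyase cleaves citrate into cytosolic acetyl-CoA, acetyl-CoA carboxylase makes malonyl-CoA, and fatty acid synthase joins these units into palmitate with reducing power from NADPH. In liver the program is driven by SREBP-1c, the product of Srebf1 that answers to insulin and is released from an endoplasmic reticulum (ER) membrane precursor by proteolysis, and by ChREBP, the product of Mlxipl, which answers to sugar. XBP1, which the unfolded protein response activates, is known as a further regulator of hepatic lipid synthesis.

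The targeted gene Xbp1 went from 247 ± 18.9 to 76.9 ± 16.2 CPM (counts scaled to library size and composition, mean ± SD of 3 libraries) with no overlap of the groups, or -1.68 ± 0.14 as log2 fold change with its SE (edgeR adjusted p = 0.000146). Nr1h4, which encodes FXR, was counted at 98.5 ± 5.93 and 97.2 ± 3.36 CPM (edgeR adjusted p = 0.891), and the deleted part of neither gene is known here. Library totals ran from 16966422 to 21107674 counts, and the 10 genes had between 382 and 7856 counts per library. On the first principal component, with 65.7% of the variance, DKO replicate 1 lay at 35.2 and the other DKO libraries at 14.5 and 20.3, against -26.8 to -21.2 in SKO. Scaling by total counts in place of trimmed means (TMM) moved the median of all log2 fold changes from 0.01 to 0.23, so a difference of about that size here is relative to the median gene. The liver's defining markers were abundant: Alb took 3.32% to 6.81% of counts. Markers of other cell types also moved. For comparison, 10.3% of all tested genes were called higher in DKO and 9.7% lower (edgeR adjusted p under 0.05). Stellate markers rose for 5 of 7 genes, with a summed level of 335 to 400.5 CPM in SKO and 570.1 to 831 CPM in DKO. Cholangiocyte markers rose for 3 of 6 (61.1 to 73.9 against 121 to 199 CPM) and macrophage markers for 2 of 6 (296 to 383 against 389.99 to 565 CPM), while 4 of 6 hepatocyte markers fell (76494 to 104476 against 49656 to 59527 CPM). Over the 12 alternatives the stellate count was 1 to 6, the cholangiocyte count 1 to 3, the macrophage count 1 to 6 and the hepatocyte count 0 to 4, each at its lowest without SKO replicate 2. The stellate, cholangiocyte and macrophage sums were each highest in DKO replicate 1. In bulk tissue fewer cells of a type and less RNA per cell cannot be told apart, and the part of cell makeup in the changes below was not tested.

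Lipogenic genes fell in part in DKO, and none rose. Of the 10, 6 fell at an edgeR adjusted p under 0.05: Srebf1, Acacb, Mid1ip1, Acly, Fasn and Pklr. Over all 13986 genes tested the same rule called 9.7% lower and 10.3% higher, 20% in all. Of the called lipogenic genes Srebf1 alone fell by at least 2-fold, as 1.27% of all tested genes did. The groups did not overlap for 8 of the 10, with every DKO library below every SKO library, which held for 19.4% of tested genes (20.2% had every DKO library above, 39.6% either). Every point estimate was below 0, from -1.82 for Thrsp to -0.12 for Mlxipl, with a median of -0.50 against 0.01 over all tested genes. With total counts as scale, 2 point estimates turned, to 0.09 for Mlxipl and 0.03 for Acaca, and the calls of Srebf1, Acacb, Mid1ip1, Acly and Pklr held.

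**Figure D1:**
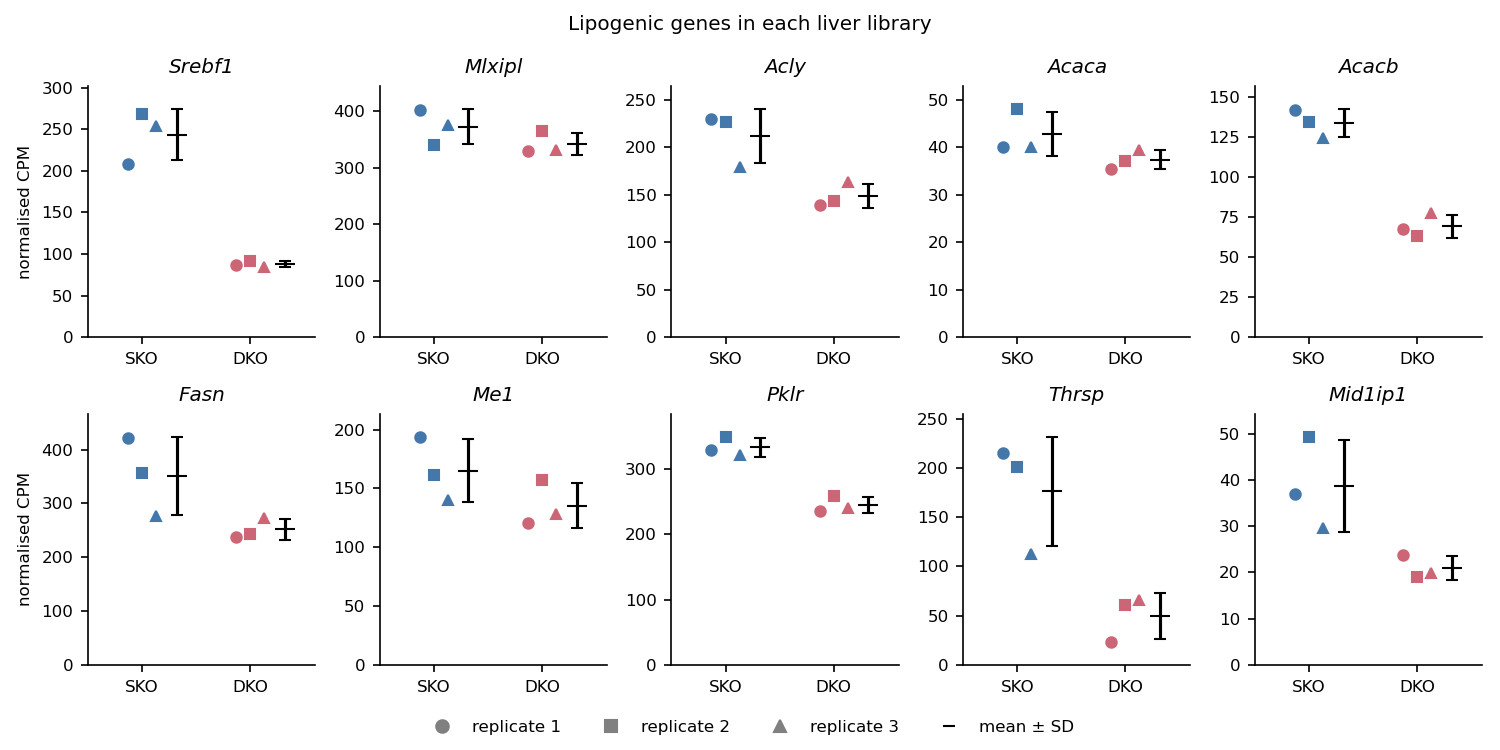
Normalised CPM of each lipogenic gene (y axis, from 0) in the 3 SKO (blue) and 3 DKO (red) libraries, with marker shape for the replicate and mean ± SD beside each group. Srebf1 sits at 84.4 to 91.6 CPM in DKO and 209 to 268 CPM in SKO, while the groups overlap for Mlxipl and Me1.

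**Figure D2:**
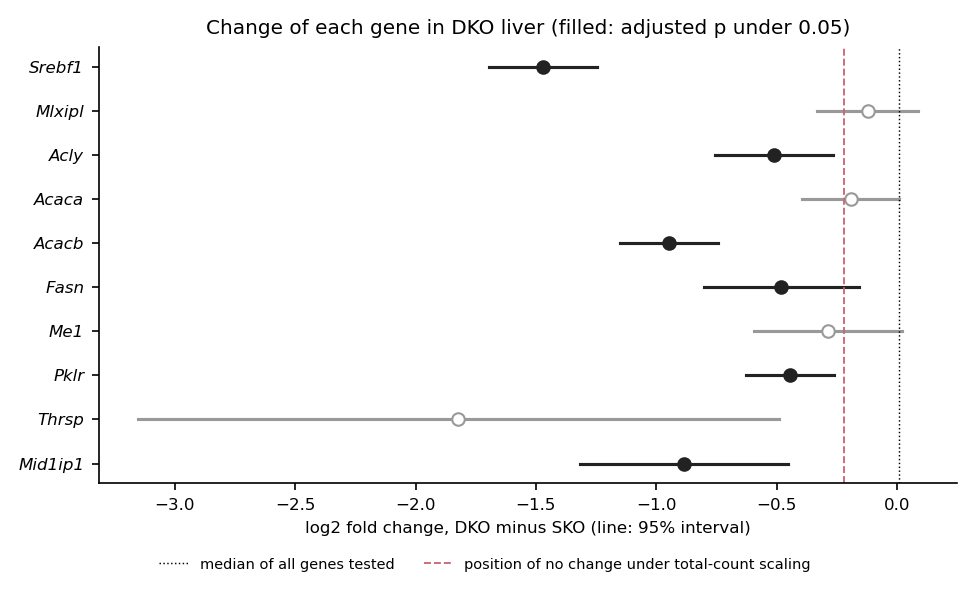
Log2 fold change of DKO against SKO (x axis) for each gene with its 95% interval. Filled points passed the adjusted p threshold, the dotted line is the median of all tested genes at 0.01, and the dashed line shows where no change would lie under total-count scaling. The interval of Thrsp is the widest, -3.15 to -0.49.

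Of the 2 transcription factor genes, Srebf1 was called and Mlxipl was not, and the difference between them was not tested. Srebf1 (ENSMUSG00000020538, chromosome 11, 60199089 to 60222581 in mm10) encodes both SREBP-1a and SREBP-1c, from separate starts that gene counts do not separate. It was counted at 209, 268 and 254 CPM in SKO replicates 1 to 3 and 87.3, 91.6 and 84.4 CPM in DKO replicates 1 to 3. The DKO libraries lay within a narrow band, with a coefficient of variation of 4.08%, the smallest of any of the 10 genes in DKO, and all far below SKO. The mean fell 2.78-fold, from 244 ± 31.0 to 87.8 ± 3.59 CPM (log2 change -1.47 ± 0.10, edgeR adjusted p = 2.11e-05). The call held in all 12 alternatives. Mlxipl (ENSMUSG00000005373, chromosome 5, 135089890 to 135138382), the ChREBP gene, was counted at 403, 340.1 and 376 CPM in SKO replicates 1 to 3 and 329.7, 365 and 332 CPM in DKO replicates 1 to 3. Its groups overlapped, with DKO replicate 2 above SKO replicate 2 and means of 373 ± 31.4 and 342 ± 20.0 CPM. It was not called (log2 -0.12 ± 0.09, 95% interval -0.33 to 0.09, edgeR adjusted p = 0.393), an interval that leaves room for a fall of up to 0.33 on the log2 scale. Mlxipl too has more than 1 listed start, and gene counts do not separate them. A change in transcripts from only 1 start could therefore go unseen. Per kilobase of exon, Mlxipl was the more abundant of the pair in both groups, 67.3 ± 5.68 against 43.2 ± 5.50 CPM per kilobase in SKO and 61.8 ± 3.61 against 15.6 ± 0.636 in DKO. The 250 bases before a start of each gene are shown for the called and the uncalled factor (RefSeq sequence, build GRCm38.p6, 5′ to 3′). Capitals mark matches to the motifs described further on. The Srebf1 window precedes the most downstream of its 3 listed starts, as SREBP-1c is known to begin downstream of SREBP-1a, and the Mlxipl window the second of its 2.
Srebf1 chr11:60210472-60210721, minus strand: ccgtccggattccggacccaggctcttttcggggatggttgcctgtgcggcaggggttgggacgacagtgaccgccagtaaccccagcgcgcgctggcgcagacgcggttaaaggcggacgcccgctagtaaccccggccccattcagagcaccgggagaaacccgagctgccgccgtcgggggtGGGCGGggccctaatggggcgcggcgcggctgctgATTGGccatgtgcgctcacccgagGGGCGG
Mlxipl chr5:135106641-135106890, plus strand: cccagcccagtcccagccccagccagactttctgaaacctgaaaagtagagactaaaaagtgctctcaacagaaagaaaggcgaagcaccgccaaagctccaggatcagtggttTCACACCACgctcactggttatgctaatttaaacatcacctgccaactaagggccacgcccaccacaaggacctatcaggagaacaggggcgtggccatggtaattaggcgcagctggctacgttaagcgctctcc

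Of the enzyme genes Acly, Acaca, Acacb and Fasn, Acacb had the largest estimated fall. Acacb (ENSMUSG00000042010, chromosome 5, 114146535 to 114250761) encodes the mitochondrial acetyl-CoA carboxylase ACC2, whose malonyl-CoA restrains fatty acid entry into mitochondria. It stood at 142, 134 and 124 CPM in SKO replicates 1 to 3 and 67.3, 63.2 and 77.3 CPM in DKO replicates 1 to 3. Every DKO library was well below the SKO libraries, a 1.93-fold fall from 134 ± 8.94 to 69.3 ± 7.26 CPM (log2 -0.95 ± 0.09, edgeR adjusted p = 0.000165) that was called in all 12 alternatives. Acaca (ENSMUSG00000020532, chromosome 11, 84129672 to 84401651) encodes the cytosolic form ACC1, which feeds malonyl-CoA to synthesis. It stood at 40.0, 48.1 and 40.1 CPM in SKO replicates 1 to 3 and 35.5, 37.2 and 39.4 CPM in DKO replicates 1 to 3. The groups did not overlap, but DKO replicate 3 was within 1 CPM of the 2 lower SKO libraries, and the gene, at means of 42.7 ± 4.64 and 37.4 ± 1.95 CPM, was not called (log2 -0.19 ± 0.09, 95% interval -0.39 to 0.01, edgeR adjusted p = 0.156).

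Acly and Fasn, at the entry and the end of cytosolic palmitate synthesis, both fell. Acly (ENSMUSG00000020917, chromosome 11, 100476353 to 100528000), ATP citrate lyase, was counted at 230.2, 227 and 179 CPM in SKO replicates 1 to 3 and 139, 144 and 163 CPM in DKO replicates 1 to 3. All DKO libraries were lower, and the fall was 1.42-fold, from 212 ± 28.6 to 149 ± 12.7 CPM (log2 change -0.51 ± 0.11, edgeR adjusted p = 0.0108), called in all 12 alternatives, with an adjusted p of up to 0.0493. Fasn (ENSMUSG00000025153, chromosome 11, 120805846 to 120824547), fatty acid synthase, was counted at 422, 356 and 277 CPM in SKO replicates 1 to 3 and 237, 244 and 273 CPM in DKO replicates 1 to 3. SKO libraries spread widely here, and DKO replicate 3 lay only just under SKO replicate 3. Its 1.40-fold fall from 351 ± 72.7 to 252 ± 19.1 CPM (log2 -0.48 ± 0.14, edgeR adjusted p = 0.0423) lost its call in 8 of 12 alternatives: without any single library other than SKO replicate 3 (adjusted p 0.0654 to 0.127), with either other scaling, and in limma-voom. Over the 6 libraries, Acly and Fasn had the most similar profiles of any pair of the 10 genes, with a root mean square distance of 0.08 in log2(CPM + 1) after centring each gene. The windows of Acacb and Fasn are shown for the largest and the least stable called fall among the enzymes.
Acacb chr5:114165268-114165517, plus strand: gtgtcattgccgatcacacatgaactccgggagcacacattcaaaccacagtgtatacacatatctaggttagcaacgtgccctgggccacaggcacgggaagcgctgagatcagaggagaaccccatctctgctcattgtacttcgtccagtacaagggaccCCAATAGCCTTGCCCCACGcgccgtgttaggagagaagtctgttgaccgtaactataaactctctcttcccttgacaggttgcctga
Fasn chr11:120824548-120824797, minus strand: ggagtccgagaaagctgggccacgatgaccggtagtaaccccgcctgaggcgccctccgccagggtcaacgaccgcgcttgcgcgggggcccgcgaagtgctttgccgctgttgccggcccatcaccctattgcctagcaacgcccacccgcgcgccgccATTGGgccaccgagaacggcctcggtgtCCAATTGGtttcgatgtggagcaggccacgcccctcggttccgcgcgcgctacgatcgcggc

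Of the 2 feeder enzyme genes, 1 was called. Pklr (ENSMUSG00000041237, chromosome 3, 89136142 to 89146784), the liver pyruvate kinase that ends glycolysis and a classic ChREBP target, was counted at 329, 349.9 and 321 CPM in SKO replicates 1 to 3 and 235, 258 and 240.2 CPM in DKO replicates 1 to 3. The groups were tight and apart, with a 1.36-fold fall from 333 ± 14.8 to 245 ± 12.04 CPM (log2 -0.45 ± 0.08, edgeR adjusted p = 0.0056) called in all 12 alternatives. The opposite-strand gene Hcn3 shares 711 bases, 22.0% of the Pklr exon bases, and without a stated strand setting reads of the shared part cannot be told apart. Shared bases of Srebf1 with Rai1 are 109, and those of Mid1ip1 with Gm14493, which had 0 counts in every library, are 543. Me1 (ENSMUSG00000032418, chromosome 9, 86581371 to 86695953), the cytosolic malic enzyme that yields NADPH, was counted at 194, 161 and 140.4 CPM in SKO replicates 1 to 3 and 121, 157 and 128 CPM in DKO replicates 1 to 3. DKO replicate 2 lay inside the SKO range, and Me1, at means of 165 ± 27.0 and 135 ± 19.2 CPM, was not called (log2 -0.29 ± 0.14, 95% interval -0.59 to 0.02, edgeR adjusted p = 0.17), except without a filter on low counts (edgeR adjusted p = 0.0181).

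Thrsp and Mid1ip1 encode Spot 14 and its paralog MIG12, small proteins that bind each other and, in the case of MIG12, promote polymerisation and activity of acetyl-CoA carboxylase. Thrsp (ENSMUSG00000035686, chromosome 7, 97412938 to 97417730) was counted at 215, 201 and 112 CPM in SKO replicates 1 to 3 and 23.3, 60.4 and 65.9 CPM in DKO replicates 1 to 3. Every DKO library was below every SKO library and the mean went from 176 ± 55.7 to 49.9 ± 23.1 CPM, a ratio of 3.53, the widest gap of the 10, yet the spread was also the widest, with coefficients of variation of 31.6% in SKO and 46.4% in DKO. edgeR with robust estimation did not call it (log2 -1.82 ± 0.50, edgeR adjusted p = 0.0726). Without robust estimation, in DESeq2 and in limma-voom it was called (adjusted p = 0.0103, 0.00422 and 0.0123), and leaving out a single library gave adjusted p-values of 0.0715 to 0.184. Mid1ip1 (ENSMUSG00000008035, chromosome X, 10715013 to 10719690) was counted at 37.0, 49.4 and 29.6 CPM in SKO replicates 1 to 3 and 23.9, 19.0 and 19.8 CPM in DKO replicates 1 to 3. All DKO libraries were lower, a 1.85-fold fall from 38.7 ± 10.00 to 20.9 ± 2.60 CPM (log2 -0.88 ± 0.19, edgeR adjusted p = 0.0157) that lost its call only without DKO replicate 3 (edgeR adjusted p = 0.0585). The Thrsp window is shown for its pair of CCAAT boxes.
Thrsp chr7:97417551-97417800, minus strand: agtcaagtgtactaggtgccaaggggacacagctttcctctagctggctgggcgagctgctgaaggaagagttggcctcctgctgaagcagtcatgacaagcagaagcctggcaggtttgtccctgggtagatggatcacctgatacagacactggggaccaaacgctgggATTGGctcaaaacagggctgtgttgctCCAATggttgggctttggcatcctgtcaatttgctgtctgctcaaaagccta

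Some libraries stood at the edge of their group for many of these genes. DKO replicate 1, which stood apart on the first principal component, was the lowest DKO library for 7 of the 10 genes, and in Thrsp it held 23.3 CPM where the others held 60.4 and 65.9. In SKO, replicate 3 was the lowest library for 7 genes and replicate 1 the highest for 6: Fasn, Acly, Me1, Thrsp, Mlxipl and Acacb. Some of these, among them Fasn, Acly, Me1 and Thrsp, are also strongly expressed in fat, and SKO replicate 1 held the most adipocyte signal. Adipoq, Plin1, Lep and Retn together had 47 counts there against 1 to 12 in every other library, and Lep was at 0 in each of those 5. SKO replicate 2, with 1 such count, was close to SKO replicate 1 for Acly (227 against 230.2 CPM) and Thrsp (201 against 215 CPM). It lay further below for Fasn (356 against 422 CPM) and Me1 (161 against 194 CPM). Adipoq alone had 27 counts in SKO replicate 1 and 5 or fewer elsewhere. The summed level of the 4 markers was 2.99 CPM there. With Cfd, Cidec and Fabp4, the other adipocyte markers listed, the sum was 59.7 CPM in SKO replicate 1 and 25.2 to 38.3 CPM in every other library. The part of adipocyte RNA in the values of SKO replicate 1 was not tested. Without that library the log2 fold changes were -0.33 for Fasn (edgeR adjusted p = 0.0984), -0.45 for Acly (0.0331), -0.16 for Me1 (0.434) and -1.66 for Thrsp (0.172). Srebf1 and Acacb stood at -1.57 and -0.90 without it.

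Ratios of 3 gene pairs were taken within each library, which do not depend on library scaling. Fasn exceeded Srebf1 per kilobase in all DKO libraries, at log2 ratios of 0.48, 0.46 and 0.74, and in SKO the ratios were 0.06, -0.55 and -0.84. The mean rose from -0.44 ± 0.46 to 0.56 ± 0.15 (SD, n = 3 per group). Acacb to Acaca stood at 2.66, 2.31 and 2.46 in SKO and at 1.75, 1.59 and 1.80 in DKO, a difference in means of -0.76. Thrsp to Mid1ip1 stood at 2.50, 1.99 and 1.88 in SKO and at -0.07, 1.62 and 1.69 in DKO, so 1 library carried most of its difference of -1.04, which was -0.46 without DKO replicate 1. The groups did not overlap for any of the 3 ratios, and each gave p = 0.1 in a two-sided exact permutation test (0.1 after adjustment over the 3), the smallest p that 3 libraries against 3 allow.

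**Figure D3:**
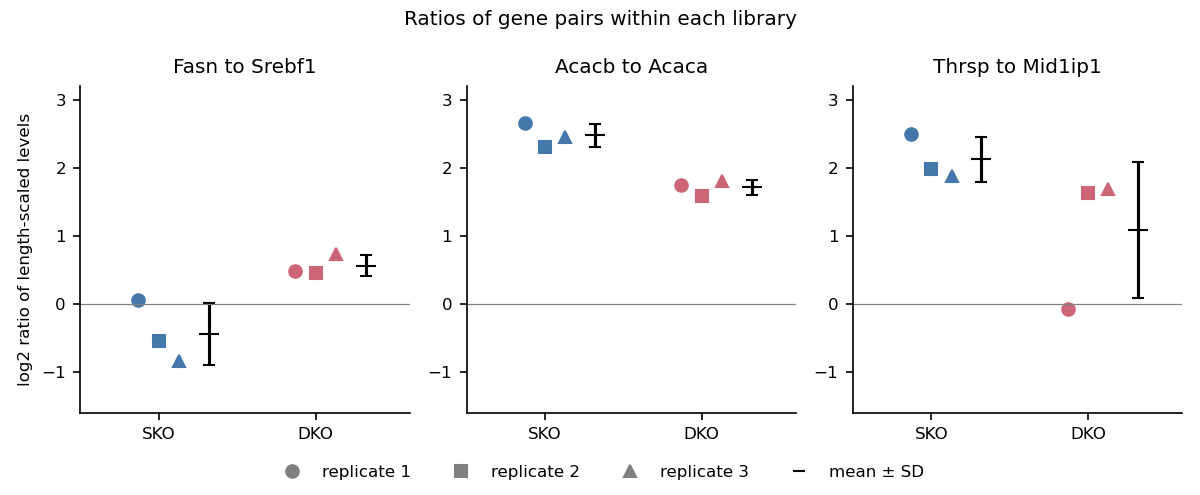
Log2 ratio of length-scaled levels (y axis) of 3 gene pairs in each SKO and DKO library, with mean ± SD. Fasn to Srebf1 is higher in DKO, and the other 2 ratios are lower, with DKO replicate 1 at -0.07 for Thrsp to Mid1ip1.

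Levels per kilobase of annotated exon spread over a wide range in SKO. Pklr was highest at 103 ± 4.59 CPM per kilobase, followed by Thrsp at 80.4 ± 25.4, Mlxipl, Srebf1, Me1, Acly and Fasn at 32.1 ± 6.64, then Mid1ip1 at 18.2 ± 4.70, Acacb at 13.9 ± 0.928 and Acaca at 2.50 ± 0.272. Thrsp and Mlxipl overlapped, as did neighbours from Srebf1 down to Fasn and the pair Mid1ip1 and Acacb. In DKO 2 genes moved down the order: Thrsp went from place 2 to place 6 and Srebf1 from place 4 to place 7, where Fasn and Thrsp, and Thrsp and Srebf1, overlapped. The annotated Acaca exons add up to 17074 bases over all isoforms, so its level per kilobase is understated if liver uses few of them.

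Promoter windows were searched on both strands for sequence motifs, as a description of sequence only. The 10 genes have 15 listed starts. The sterol element TCACNCCAC was in 1 of the 15 windows (Mlxipl) and in 1.05% of 32851 windows genome-wide, and the E-box CACGTG in 1 (the other Mlxipl start), against 6.02%. Both were searched only with these letters, and inexact forms were not searched. The search therefore cannot tell whether the other genes, Srebf1 and Fasn included, lack a sterol element or an E-box. CCAAT was in 8 windows of 7 genes, against 33.8%, and GGGCGG in 6 windows of 5 genes, against 32.7%. The ER stress element, CCAAT and CCACG with 9 bases between, which holds a CCAAT box and is bound by factors of the unfolded protein response, occurred in 1 window, that of Acacb at -87 to -69 from the start, and in 0.113% of windows genome-wide. TGACGTGG, the core of the unfolded protein response element, was in none of the 15 (0.563% genome-wide). The carbohydrate response element was searched only as 2 exact copies of CACGTG with 5 bases between them, which none of the 32851 windows held. Forms with inexact E-boxes were not searched. The search therefore cannot tell whether these genes, Pklr included, have such an element. All listed starts of Acacb, Acaca, Mid1ip1, Thrsp and Me1 lie inside the annotated genes, so the Thrsp CCAAT boxes do too, and windows at the outermost annotated ends of these genes were not searched.

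Lists of genes around SREBP and ChREBP control are read against the 9.7% of all tested genes called lower and 10.3% called higher. Of 13 genes of SREBP processing 3 fell and none rose, with a median of -0.17. Insig1, an ER retention factor and SREBP target, fell by 1.08 ± 0.10 on the log2 scale, with 173 ± 23.2 CPM in SKO against 81.9 ± 3.77 in DKO (edgeR adjusted p = 0.000133). Scap, the SREBP escort, fell by 0.27 ± 0.08 on the log2 scale, with 139 ± 10.6 CPM in SKO against 115 ± 4.51 in DKO (edgeR adjusted p = 0.0366). Scap lost its call with either other scaling and without any library other than SKO replicate 1 (edgeR adjusted p up to 0.595). Of 18 other lipogenic regulators 5 fell and none rose, with a median of -0.11. They included Nr0b2, the corepressor SHP (from 13.5 ± 2.46 to 6.99 ± 0.403 CPM, log2 -0.95 ± 0.15), the E-box factor Usf2 (log2 -0.40 ± 0.08) and Mlx, the ChREBP partner (log2 -0.36 ± 0.07). Usf2 and Mlx lost their calls with total counts (edgeR adjusted p = 0.155 and 0.165). Of 18 genes of insulin signalling 2 fell, Rptor (log2 -0.35 ± 0.07), part of the mTORC complex that acts upstream of SREBP, and Akt2, the main hepatic Akt (log2 -0.22 ± 0.07), with a median of -0.06. With total counts neither was called, and Akt2 was called in only 2 of the 12 alternatives.

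Genes that supply carbon and reducing power were called in both directions, as were all tested genes (10.3% higher, 9.7% lower). Of 16 genes from sugar to pyruvate 4 rose and 2 fell, with a median of 0.04, and over the 12 alternatives 1 to 8 rose and 0 to 2 fell. Fbp1, a gluconeogenic phosphatase, rose by 0.49 ± 0.10 on the log2 scale, with 1074 ± 30.3 CPM in SKO against 1509.5 ± 79.0 in DKO (edgeR adjusted p = 0.00766), while the pentose phosphate gene Taldo1 (log2 -0.38 ± 0.07) and Pfkfb1, the bifunctional regulator of glycolysis (log2 -0.55 ± 0.13), fell. With total counts neither was called (log2 -0.16 for Taldo1 and -0.34 for Pfkfb1). Pfkfb1 also lost its call, at log2 -0.60 to -0.48, without DKO replicate 3 or any single SKO library (adjusted p of 0.0507 to 0.0793). Of 16 genes of citrate and acetyl-CoA supply 6 fell and 1 rose, with a median of -0.24. The pyruvate dehydrogenase kinase gene Pdk1 fell by 0.80 ± 0.10 on the log2 scale, with 148 ± 12.5 CPM in SKO against 85.0 ± 8.93 in DKO (edgeR adjusted p = 0.000611). The pyruvate carrier gene Mpc2 dropped by 0.75 ± 0.09 on the log2 scale, with 166 ± 11.9 CPM in SKO against 99.1 ± 10.4 in DKO (edgeR adjusted p = 0.000762). The citrate carrier gene Slc25a1 fell by 0.52 ± 0.09 on the log2 scale, with 251 ± 24.1 CPM in SKO against 175 ± 7.95 in DKO (edgeR adjusted p = 0.00414). Acss2, which makes cytosolic acetyl-CoA from acetate and was named after its values were seen, fell by 1.15 ± 0.20 on the log2 scale, with 318 ± 75.6 CPM in SKO against 143 ± 25.3 in DKO (edgeR adjusted p = 0.00819) and lost its call without DKO replicate 1 (edgeR adjusted p = 0.055). Of 10 tested NADPH genes, from a list of 11, 2 rose and 2 fell, with a median of 0.05: Pgd of the pentose phosphate pathway rose by 0.66 ± 0.12 on the log2 scale, with 53.8 ± 8.36 CPM in SKO against 85.1 ± 9.92 in DKO (edgeR adjusted p = 0.00702). Mitochondrial Idh2 rose too (log2 0.44 ± 0.08), and Aldh1l1, a folate enzyme, fell (log2 -0.64 ± 0.13).

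**Figure D4:**
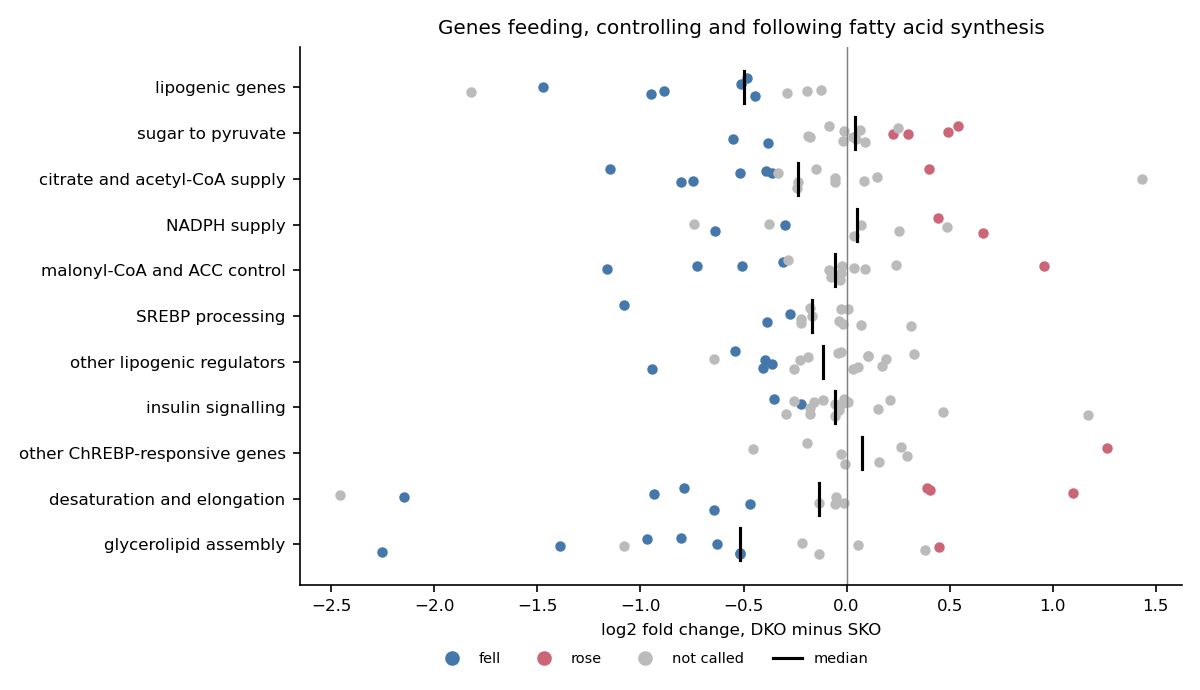
Log2 fold change of DKO against SKO (x axis) for every tested gene of the lipogenic set and 10 lists around it (rows); colour shows the call and the black bar the list's median. The medians are -0.50 for the 10 lipogenic genes and -0.52 for glycerolipid assembly, and lie between -0.24 and 0.07 for the other lists.

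Genes that use or restrain malonyl-CoA and genes that work on the product were also called in both directions. Of 14 genes around malonyl-CoA and carboxylase control 4 fell and 1 rose, with a median of -0.05. Fabp1, the liver fatty acid binding protein, fell by 1.16 ± 0.13 on the log2 scale, with 5321 ± 511 CPM in SKO against 2379 ± 237 in DKO (edgeR adjusted p = 0.000382). Ppm1k, a phosphatase reported to act on Acly protein, also fell (log2 -0.51 ± 0.10). Prkab2, an AMPK subunit gene, rose by 0.96 ± 0.16 on the log2 scale, with 4.80 ± 0.62 CPM in SKO against 9.31 ± 1.30 in DKO (edgeR adjusted p = 0.00318). Of 13 desaturase and elongase genes 5 fell and 3 rose, with a median of -0.13, and Scd1 (log2 -2.14 ± 0.19), Elovl5 (log2 -0.93 ± 0.11) and Fads1 (log2 -0.64 ± 0.09) fell. Elovl6, which extends palmitate and was named after its values were seen, stood at 129 ± 18.2 and 124 ± 10.3 CPM and was not called (log2 -0.06 ± 0.11, 95% interval -0.29 to 0.18, edgeR adjusted p = 0.749). Of 13 genes of glycerolipid assembly 7 fell and 1 rose, with a median of -0.52, led by Dgat2 (log2 -2.25 ± 0.13), Acsl1 (log2 -0.97 ± 0.11) and Agpat2 (log2 -0.80 ± 0.11). Of 8 other genes known to respond to ChREBP none fell and 1, Fgf21, rose by 1.26 ± 0.25 on the log2 scale, with 1.15 ± 0.289 CPM in SKO against 2.77 ± 0.362 in DKO (edgeR adjusted p = 0.00796), with a median of 0.07.

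Genes outside the set with the most similar profiles were sought among 8205 genes averaging 10 CPM or more, by root mean square distance of centred log2(CPM + 1) over the 6 libraries. For Srebf1 they were Pla1a, a phospholipase gene (distance 0.13, log2 -1.49), Pxmp2, a peroxisomal membrane protein gene (0.14, log2 -1.52), and Erp44, a retention factor of the early secretory pathway (0.14, log2 -1.37). For Fasn they were Emc9 (0.05, log2 -0.51), Adra1b, an adrenergic receptor gene (0.08, log2 -0.59), and Thnsl2 (0.08, log2 -0.43). The distance includes the difference between the groups.

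**Figure D5:**
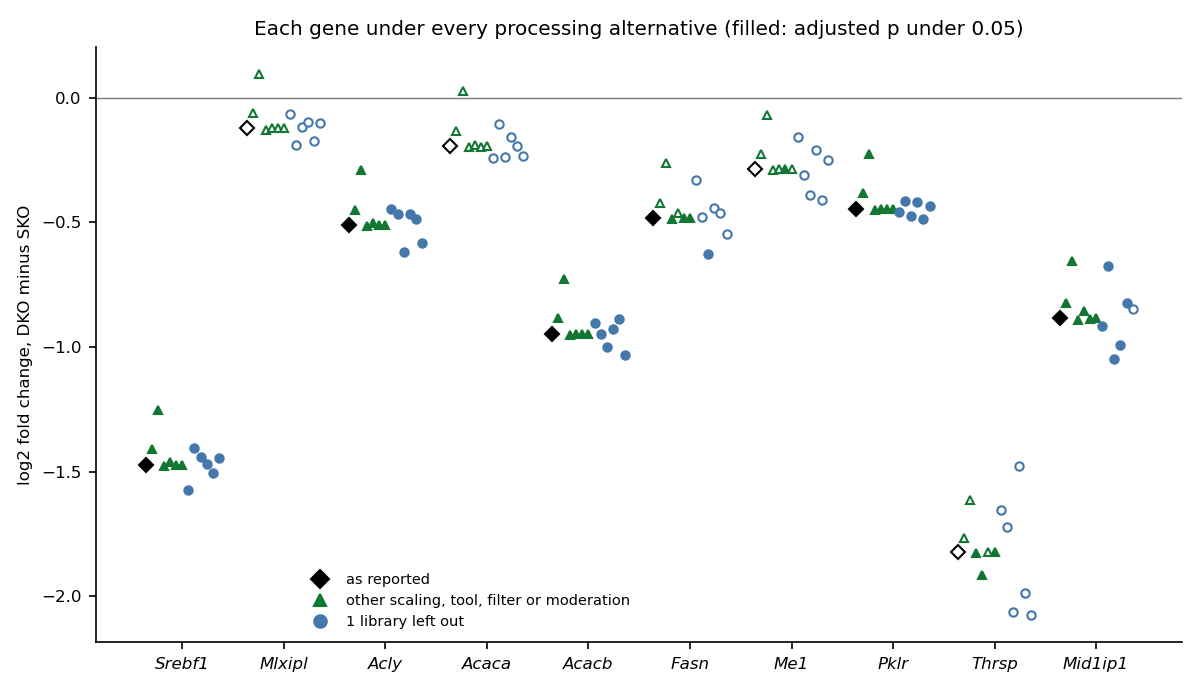
Log2 fold change of DKO against SKO (y axis) of each lipogenic gene as reported (diamond), under 6 other settings (triangles) and with each of the 6 libraries left out (circles); filled symbols passed the adjusted p threshold. Srebf1, Acacb, Acly and Pklr are filled throughout, and Fasn, Thrsp, Mid1ip1 and Me1 only in part. Mid1ip1 is open only without DKO replicate 3, and Me1 is filled only without a filter on low counts.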

How the data were processed

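RNA was extracted with Trizol and made into libraries by standard Illumina methods, per the labels. What the authors deposited are unnormalised counts of reads, as integers, for 54232 Ensembl genes in 6 libraries. Build mm10 and the tools STAR, cutadapt 1.13, DESeq2 and HTSeq 0.6.1p1 are named, without order or settings, per the submitters' processing notes. Annotation release and use of strand were not given in the sources used here. Symbols, coordinates and exon lengths came from GENCODE M21, of the same assembly, in which 54165 identifiers matched.

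Groups follow the genotype label, and replicate numbers follow accession order and pair nothing. No 2 libraries of a group agreed within sampling noise (chi-square over degrees of freedom 10.2 to 29.4). DKO was compared with SKO by the quasi-likelihood F test of edgeR 4.0.16 in R 4.3.3 (filterByExpr, TMM, robust estimation), with Benjamini-Hochberg adjustment over 13986 genes and a threshold of 0.05. The test was also run on counts simulated from the same kind of model that it assumes. That run checks the procedure only and has no bearing on the calls. CPM are counts scaled by library total times TMM factor, and a standard error is the log2 fold change over the square root of F. Intervals are 95%. The 12 alternatives were upper-quartile and total-count scaling, DESeq2 1.42.0, limma-voom 3.58.1, no filter, no robust estimation and leaving out each library.

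The 10 genes and the 10 pathway and 8 marker lists were chosen with earlier results of these data known. Named genes are all 10 lipogenic genes, Xbp1 and Nr1h4, the 3 called genes with the smallest p of each pathway list, and the 3 nearest profiles of Srebf1 and Fasn. A gene that the rule names is not reported here. Of the marker lists, none of 6 endothelial and 6 lymphocyte genes, 3 tested adipocyte genes and 5 tested blood genes was called.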

Additional observations from a re-analysis of the deposited data

How the results depend on the processing

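No paired analysis was possible because the labels give no replicate numbers that link the groups. Of the 10 lipogenic genes, 6 were called lower, 4 to 7 in the 12 alternatives and 4 to 6 with 1 library left out, and none was called higher in any. Total-count scaling turned the log2 fold changes of Mlxipl to 0.0943, Acaca to 0.0266 and Elovl6 to 0.163. Elovl6 was 0.00427 with upper-quartile factors and -0.123 to 0.0584 with 1 library left out. Over all genes, 1446 were called higher and 1357 lower (51.6% higher), against 3859 and 538 with total counts (87.8%) and 1856 and 987 with upper-quartile factors (65.3%). With 1 library left out, 674 to 1569 were higher and 745 to 1200 lower. The lowest were without SKO replicate 2, and without SKO replicate 3 and DKO replicate 3 the counts were 894 and 890, and 942 and 889. The causes were not tested, beyond the fewer libraries. Counts of the lists moved too, as called lower and higher over the 12 alternatives: SREBP processing 1 to 3 and 0 to 2, regulators 1 to 6 and 0 to 2, insulin signalling 0 to 3 and 0 to 3, sugar to pyruvate 0 to 2 and 1 to 8, citrate supply 3 to 6 and 1 to 4, NADPH 1 to 3 and 2 to 6, malonyl-CoA control 2 to 5 and 1 to 3, desaturation 5 to 6 and 2 to 3, glycerolipids 5 to 8 and 0 to 2, and ChREBP-responsive genes 0 and 1 to 3. The log2 ratios kept their sign without each library, at 0.81 to 1.25 for Fasn to Srebf1, -0.84 to -0.67 for Acacb to Acaca and -1.35 to -0.46 for Thrsp to Mid1ip1. Each of the 10 genes had at least 382 counts in every library, and how depth or the number of libraries limits the calls was not tested.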

Other observations

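The nearest profiles to Thrsp were looked up after its values were seen. By the distance used for Srebf1 and Fasn, the 3 nearest of 8205 genes were all major urinary protein genes, which encode pheromone carriers that male liver secretes in large amounts. Mup12 fell from 35.8 ± 4.59 to 9.71 ± 3.76 CPM (SD, n = 3 per group; log2 -1.89 ± 0.29, edgeR adjusted p = 0.00839), Mup3 from 8075 ± 398 to 2344 ± 774 CPM (SD, n = 3 per group; log2 -1.78 ± 0.23, edgeR adjusted p = 0.00156) and Mup21 from 68.5 ± 5.19 to 18.8 ± 9.75 CPM (SD, n = 3 per group; log2 -1.87 ± 0.40, edgeR adjusted p = 0.0357). Their distances from Thrsp were 0.29, 0.32 and 0.35, larger than those of the nearest genes of Srebf1 or Fasn. These genes belong to a family with near-identical copies, so the split of reads between them is uncertain.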
